A study of Mus musculus with 20 samples.

Results

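The genes described are the phase II conjugation enzymes of mouse liver in 3 families: the glutathione S-transferases (Gst), the UDP-glucuronosyltransferases (Ugt) and the cytosolic sulphotransferases (Sult). They were taken by name: a probe belonged when its single gene symbol was Gst with a class letter a, k, m, o, p, t or z and a number, Ugt with a number from the families 1, 2, 3 or 8, or Sult with a number, a letter and a number. The rule found 43 of the 15252 genes with a single-symbol probe, measured by 48 of 18790 such probes: 20 Gst genes, 11 Ugt genes and 12 Sult genes. One mean was taken for each gene, 38 genes had 1 probe and 5 had 2, and all 43 symbols are those of the GRCm38.p6 reference. The rule uses names only, and no gene was filtered out for a low value.

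Livers came from 5 groups of 4 mice. The vehicle group received Ringer's solution alone, and the other groups received 40 µg of an siRNA in Ringer's solution: GL3 control siRNA, SEAP-M control siRNA, PPARa siRNA or PPARa-M siRNA, of which the last pair is directed at different stretches of the Ppara mRNA. All 20 mice were injected into the tail vein by the hydrodynamic method, in which a large volume is forced in within seconds, and their livers were taken 48 h later, so the vehicle mice share that procedure. Strain, sex and age are not given in the sources used here, nor is the meaning of the suffix M. Each siRNA against Ppara was set against the control siRNA of the same style of name (PPARa-M against SEAP-M, PPARa against GL3). Ppara encodes a nuclear receptor of hepatocytes that is activated by fatty acids.

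Phase II enzymes attach a polar group to drugs, hormones, bile acids and reactive by-products of metabolism, which makes them easier to excrete. Gst enzymes transfer glutathione, Ugt enzymes transfer glucuronic acid from UDP-glucuronate, and Sult enzymes transfer sulphonate from the donor PAPS. The liver is the main site of all 3 reactions, and many of the genes are known to be induced through the receptors CAR and PXR or the oxidant sensor NRF2.

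Each array set RNA of 1 mouse against pooled RNA of 4 vehicle mice. A level below is the log2 ratio of the mouse to that pool, so that -1 is 50% of the pool, and a difference is the difference of 2 group means on the same log2 scale. The direction, mouse over pool, is the likely one: the sample titles name the pool first and the mouse second, the channels are labelled Cy3 and Cy5 in that order, and the Ppara level was lower in mice given Ppara siRNA. Arrays measure many cells at once, so fewer cells of a type and less RNA per cell cannot be told apart. A probe of 1 enzyme can also bind the RNA of a close relative, above all among the Gstm, Gstt, Ugt1a and Ugt2b genes, and the array data do not separate these.

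Ppara itself, as the mean of its probes, had levels of -0.59, -1.05, -0.59 and -0.62 after PPARa-M siRNA and 0.80, -0.16, 0.12 and -0.07 in the SEAP-M mice. It stood at 0.09, -0.42, -0.29 and -0.35 in the PPARa siRNA mice and at 0.04, 0.20, 0.00 and 0.15 in the GL3 mice. The PPARa-M mice lay below all 4 SEAP-M mice, whereas 1 of the PPARa mice lay among the GL3 mice. Ppara mRNA was therefore 54.0% of the SEAP-M level with PPARa-M siRNA (log2 difference -0.89 ± 0.17 standard error (SE), adjusted p = 0.0103) and 78.8% of the GL3 level with PPARa siRNA (-0.34 ± 0.17, adjusted p = 1.00). These p-values, like all below, are from limma fitted over all genes and 20 arrays with Benjamini-Hochberg adjustment, and a gene is called changed when the adjusted p is under 0.05. The drop of Ppara with PPARa-M siRNA was not called after quantile normalization (-0.74, adjusted p = 0.141), after scaling the arrays to one interquartile range (-0.63, adjusted p = 0.112), or from the 8 arrays of these groups alone (-0.89, adjusted p = 0.125).

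Array medians were within 0.01 of 0 on the deposited log10 scale, but the spread of the ratios was not the same in every group: the interquartile range was 0.0735 to 0.1245 in the PPARa-M arrays and 0.0442 to 0.0852 in the other groups. For the comparisons of PPARa-M with SEAP-M siRNA and with vehicle, calls under alternative scalings of the arrays are therefore given as well. One further mouse stood apart. Mouse D of the PPARa siRNA group had a mean level of 2.89 over 7 neutrophil markers, where the other mice of its group ranged from -0.19 to 0.70, and its mean over 17 acute phase proteins lay above the -0.21 to 0.57 of the others. It was the lowest mouse of its group for 20 of the 43 conjugation genes, among them 8 of the 11 Ugt genes. Such counts were not particular to this mouse. Vehicle mouse C and GL3 mouse B were each the lowest of their groups for 17 of the 43, and PPARa-M mouse B for 9 of the 11 Ugt genes. Results are given without mouse D of PPARa siRNA below.

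The DNA before the start of the Gst genes that the results turn on is shown here. Gstm2 and Gstm5 lie in 1 gene cluster and were called for PPARa-M against SEAP-M siRNA, while others of the cluster were not. Gstm6 of that cluster was called for PPARa-M siRNA against vehicle only, and its window is not shown. The Gstm genes lie on chromosome 3 in the order Gstm5, Gstm7, Gstm6, Gstm3, Gstm2, Gstm1 and Gstm4, and the Gstt genes on chromosome 10 in the order Gstt3, Gstt1, Gstt4 and Gstt2 (RefSeq, GRCm38.p6). Each window is the 250 bases before a start site, 5′ to 3′ on the strand of the gene, with Gstm1 as the neighbour of Gstm2 that was not called. Capitals mark TGACNNNGC, the core of the antioxidant response element to which NRF2 binds, on either strand.
Gstm5 (chr3:107895604-107895853, plus strand): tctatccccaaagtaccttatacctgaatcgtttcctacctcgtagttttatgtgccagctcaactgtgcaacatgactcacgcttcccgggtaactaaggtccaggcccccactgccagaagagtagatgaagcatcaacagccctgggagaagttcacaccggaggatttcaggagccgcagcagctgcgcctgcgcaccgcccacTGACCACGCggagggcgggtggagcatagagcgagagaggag
Gstm2 (chr3:107986421-107986670, minus strand): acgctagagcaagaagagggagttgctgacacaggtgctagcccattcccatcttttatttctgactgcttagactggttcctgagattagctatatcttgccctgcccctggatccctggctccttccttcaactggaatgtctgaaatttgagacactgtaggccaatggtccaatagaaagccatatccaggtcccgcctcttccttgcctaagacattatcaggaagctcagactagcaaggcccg
Gstm1 (chr3:108017974-108018223, minus strand): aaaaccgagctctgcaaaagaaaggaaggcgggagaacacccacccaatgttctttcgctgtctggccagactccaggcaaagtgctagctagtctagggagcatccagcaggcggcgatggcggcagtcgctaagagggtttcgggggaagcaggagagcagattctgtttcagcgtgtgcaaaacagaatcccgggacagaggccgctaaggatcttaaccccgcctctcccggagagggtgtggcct
Gstt3 (chr10:75781423-75781672, minus strand): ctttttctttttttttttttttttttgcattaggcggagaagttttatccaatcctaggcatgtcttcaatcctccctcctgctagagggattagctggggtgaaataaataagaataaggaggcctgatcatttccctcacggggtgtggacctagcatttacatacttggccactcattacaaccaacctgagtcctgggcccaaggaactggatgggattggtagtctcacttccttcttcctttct
Only the Gstm5 window of these 4 held the motif, 42 bases before the start. Over all 39 members with a window, at any of their starts, 3 held it (Gsta3, Gstm5 and Gstm7), or 7.69%, against 11.5% of the 27025 genes of the whole RefSeq table counted in the same way. The half-site AGGTCA or its complement TGACCT, which nuclear receptors such as PPARα bind in pairs, stood in the windows of 7 members (Gstk1, Sult1b1, Sult1e1, Sult2a8, Ugt1a9, Ugt2b37 and Ugt2b5), or 17.9%, against 15.8% of all genes. The Gstm1 and Gstt3 entries each have a further start, which is not shown. A match describes letters and not a bound site.

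Under PPARa-M siRNA, most conjugation genes had lower levels than under SEAP-M siRNA, but few by more than the mice varied. Of the 43 genes, 33 had a negative difference and 10 a positive one, where 8195 of all 15252 genes had a negative one and 7056 a positive one. Gstm2 and Gstm5 fell and Gstt3 rose, which makes 3 called genes, all of the Gst family, or 1 of 20 Gst genes up and 2 down, with 0 of 11 Ugt and 0 of 12 Sult genes called. Over all genes 2.54% were called in this comparison, 1.04% higher and 1.51% lower. Without adjustment, 15 of the 43 had a p under 0.05 (7 Gst, 4 Ugt and 4 Sult), where 18.8% of all genes passed. The median difference was -0.12 for Gst, -0.21 for Ugt and -0.09 for Sult, against -0.01 over all genes. The groups did not overlap for 1 gene that was higher and 10 that were lower, where 3.72% and 6.36% of all genes did so.

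**Figure D1:**
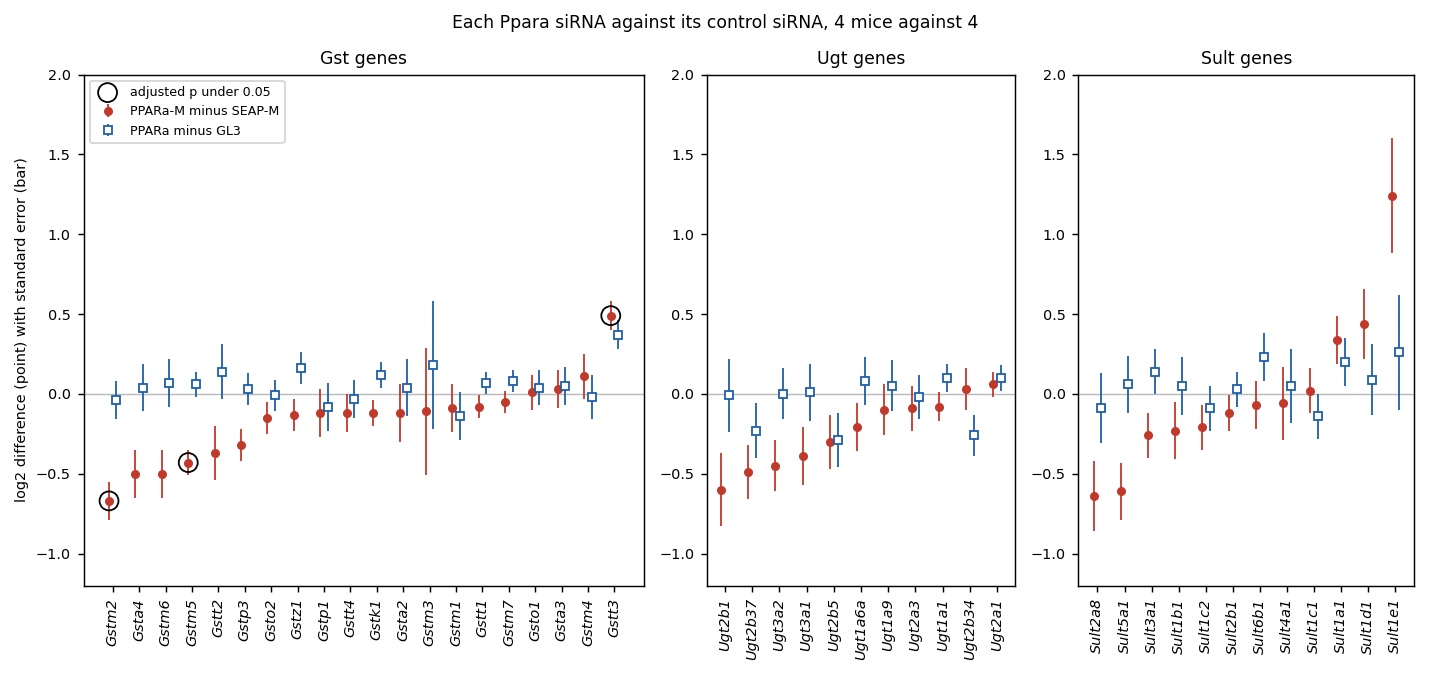
Log2 difference (vertical axis, point with its standard error) of each Gst, Ugt and Sult gene between PPARa-M and SEAP-M siRNA (filled circles) and between PPARa and GL3 siRNA (open squares), with 4 mice in each group and genes ordered by the first comparison. Black rings mark Gstm2, Gstm5 and Gstt3, the genes called with PPARa-M siRNA; no square is ringed, and most filled circles lie below 0.

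Gstm2, a mu-class glutathione transferase, had levels of -0.85, -0.61, -1.02 and -1.06 in the PPARa-M mice and of -0.05, -0.33, -0.16 and -0.31 in the SEAP-M mice. The highest PPARa-M mouse lay below the lowest SEAP-M mouse, and below every mouse of the other groups as well. The level was 62.7% of that in SEAP-M mice (log2 difference -0.67 ± 0.12 SE, adjusted p = 0.00763). Vehicle mice stood at -0.09, -0.06, 0.31 and -0.08, GL3 mice at -0.22, -0.11, -0.21 and 0.04, and PPARa mice at -0.39, 0.11, -0.21 and -0.18. These 3 groups overlapped with each other and with the SEAP-M mice.

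Gstm5, another mu-class enzyme, varied little between mice of a group (SD 0.11 within groups). Its levels were -0.43, -0.57, -0.62 and -0.65 in the PPARa-M mice and -0.10, -0.13, -0.21 and -0.12 in the SEAP-M mice, with no overlap. The difference was -0.43 ± 0.08 SE (74.3% of the SEAP-M level, adjusted p = 0.00944). With PPARa siRNA the levels were -0.24, -0.09, -0.14 and -0.04 and with GL3 siRNA -0.24, -0.12, -0.27 and -0.12, so that these groups overlapped and differed by 0.06 ± 0.08 SE. The difference between the 2 effects, PPARa over GL3 against PPARa-M over SEAP-M, was 0.49 ± 0.11 SE for Gstm5 (adjusted p = 0.0485). It was the only one of the 43 genes called in that test, where 0.879% of all genes were called; 8 of the 43 had an unadjusted p under 0.05, where 12.6% of all genes had one. It stayed called in 4 of the 20 fits that each omit an array, and in none of 3 other scalings (median centring, quantile normalization and one interquartile range).

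Gstm6 lies between Gstm7 and Gstm3 and had PPARa-M levels of -0.51, -0.42, -0.65 and -0.65. The SEAP-M levels were 0.35, -0.07, -0.19 and -0.30, all of them higher but widely spread. The difference of -0.50 ± 0.15 SE did not pass (adjusted p = 0.0684). Its 2 probes gave -0.51 and -0.50. Other members of the cluster had smaller differences: Gstm1 differed by -0.09 ± 0.15 SE, Gstm4 by 0.11 ± 0.14 SE and Gstm7 by -0.05 ± 0.07 SE. Gstm3, which is known to be strongly inducible in mouse liver, was the most variable of all 43 genes, with an SD of 0.61 within groups, and 98.8% of all genes varied less. Its levels ran from -1.49 to 0.21 in the PPARa-M mice and from -0.84 to 0.95 in the vehicle mice, and its difference from SEAP-M was -0.11 ± 0.40 SE.

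Gstt3, a theta-class enzyme, was the exception in direction. Its PPARa-M levels were 0.04, 0.26, 0.12 and 0.18, and its SEAP-M levels were -0.22, -0.32, -0.42 and -0.41. All 4 PPARa-M mice lay above the SEAP-M mice, and the level was 1.41-fold that in SEAP-M mice (0.49 ± 0.09 SE, adjusted p = 0.00724). With PPARa siRNA the levels were -0.31, -0.28, -0.20 and -0.03, against -0.50, -0.72, -0.50 and -0.59 with GL3 siRNA. These groups did not overlap either, and the difference was 0.37 ± 0.09 SE (1.29-fold, adjusted p = 0.323), not called. When both Ppara siRNAs were set against both control siRNAs, 8 mice against 8, Gstt3 was the 1 conjugation gene called, where 0.216% of all genes were (0.43 ± 0.06 SE, 1.35-fold, adjusted p = 0.00514). This call stood with every array left out in turn and under every alternative tried, quantile normalization (0.51, adjusted p = 0.0390) and the common interquartile range (0.49, adjusted p = 0.0187) among them.

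The vehicle mice place that result. They had Gstt3 levels of -0.11, 0.05, -0.17 and 0.20, so that the GL3 mice lay below all of them (-0.57 ± 0.09 SE, 67.4% of vehicle, adjusted p = 0.0266) and the SEAP-M mice did too (-0.33 ± 0.09 SE, adjusted p = 0.543). PPARa-M mice differed from vehicle by 0.16 ± 0.09 SE and PPARa mice by -0.20 ± 0.09 SE, neither called and both overlapping with vehicle. Gstt3 was thus higher with the Ppara siRNAs than with the control siRNAs, but not called higher than with vehicle. Its neighbours on chromosome 10 differed between PPARa-M and SEAP-M by -0.08 ± 0.07 SE for Gstt1, -0.12 ± 0.12 SE for Gstt4 and -0.37 ± 0.17 SE for Gstt2, with none called.

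Among the remaining Gst genes, Gsta4, an alpha-class enzyme known for conjugating the lipid peroxidation product 4-hydroxynonenal, had PPARa-M levels of -0.56, -0.20, -0.99 and -0.99. The SEAP-M levels were -0.17, -0.19, -0.20 and -0.18, nearly equal to each other and all above the PPARa-M mice, although mouse B of PPARa-M missed them by little. The difference was -0.50 ± 0.15 SE (adjusted p = 0.0705), and it was called without that mouse. Gstp3 of the pi class differed by -0.32 ± 0.10 SE with no overlap (adjusted p = 0.0891). Gstz1, which isomerizes maleylacetoacetate in tyrosine breakdown, differed by -0.13 ± 0.10 SE, the mitochondrial and peroxisomal Gstk1 by -0.12 ± 0.08 SE, and the omega-class Gsto1 and Gsto2 by 0.01 ± 0.11 SE and -0.15 ± 0.10 SE. Gsta2, Gsta3 and Gstp1 had differences between -0.12 and 0.03.

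Leaving out any array in turn kept Gstm2, Gstm5 and Gstt3 called in this comparison. All 3 calls were lost after quantile normalization (Gstm2 -0.40, adjusted p = 0.333; Gstm5 -0.26, adjusted p = 0.349; Gstt3 0.48, adjusted p = 0.156), and likewise with one interquartile range for all arrays, where 13 genes of the whole array were called instead of 388. Fitted on the 8 arrays of these groups alone, the adjusted p was 0.0555, 0.0555 and 0.0506.

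No Ugt gene was called in this comparison, yet the family had the lowest median of the 3, and 9 of its 11 genes had negative differences. With an array left out the Ugt median ranged from -0.29 (PPARa-M mouse C) to -0.12 (SEAP-M mouse A), the latter the same as the Gst median over all arrays. Ugt2b1, of the subfamily that conjugates steroids and bile acids, had PPARa-M levels of -0.92, -1.18, -0.49 and -0.63 and SEAP-M levels of -0.03, -0.21, -0.22 and -0.37. The groups did not overlap (-0.60 ± 0.23 SE, adjusted p = 0.160). Ugt2b37 had -0.44, -0.66, -0.22 and -0.17 against 0.53, -0.16, 0.17 and -0.08, again without overlap but by 0.01 at the nearest mice (-0.49 ± 0.17 SE, adjusted p = 0.122). Ugt3a2, whose human counterpart uses UDP-glucose and UDP-xylose in place of UDP-glucuronate, had -0.42, -1.08, -0.11 and -0.09 against 0.13, -0.03, 0.03 and -0.04. Its difference of -0.45 ± 0.16 SE (adjusted p = 0.141) was -0.23 at its smallest with an array left out, PPARa-M mouse B. Ugt1a1, the enzyme that conjugates bilirubin, differed by -0.08 ± 0.09 SE, and the 3 Ugt1a genes measured all lay between -0.21 and -0.08. Ugt2b5 differed by -0.30 ± 0.17 SE, whereas Ugt2b34 of the same cluster on chromosome 5 differed by 0.03 ± 0.13 SE.

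The Sult genes went both ways. Sult1e1, which inactivates oestrogens, had the largest difference of all 43 genes, with PPARa-M levels of 0.26, 0.84, 1.62 and 1.81. SEAP-M levels were -0.49, -0.47, 0.79 and -0.26, so that 1 SEAP-M mouse lay among the PPARa-M mice. The level was 2.36-fold that of SEAP-M mice, but with an SE of 0.36 around 1.24 it was not called (adjusted p = 0.0710). It was called when mouse A of PPARa-M, mouse C of SEAP-M or mouse D of PPARa siRNA was left out. That last mouse had a Sult1e1 level of 1.18, while the others of its group stood at -0.09, -0.14 and -0.48.

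Sult2a8, a bile acid sulphotransferase of mouse liver, had PPARa-M levels of -0.29, -1.09, -0.75 and -0.74 and SEAP-M levels of 0.00, -0.11, 0.07 and -0.26. The PPARa-M mice all lay lower, the nearest by 0.03 (-0.64 ± 0.22 SE, adjusted p = 0.125). Sult5a1 had -0.03, -0.11, -0.06 and -0.06 with PPARa-M against 1.01, 0.41, 0.16 and 0.60 with SEAP-M (-0.61 ± 0.18 SE, adjusted p = 0.0720). Here the SEAP-M mice had the larger difference from vehicle: PPARa-M differed from vehicle by -0.07 ± 0.18 SE and SEAP-M by 0.53 ± 0.18 SE, neither called. Of the phenol and amine sulphotransferases, Sult1a1 differed by 0.34 ± 0.15 SE and Sult1d1 by 0.44 ± 0.22 SE. Sult1b1, which acts on thyroid hormone, differed by -0.23 ± 0.18 SE, and the cholesterol sulphotransferase gene Sult2b1 by -0.12 ± 0.11 SE. The 2 probes of Sult4a1, a brain-enriched member, disagreed in sign (0.22 ± 0.17 SE and -0.34 ± 0.43 SE), and their mean is not informative.

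**Figure D2:**
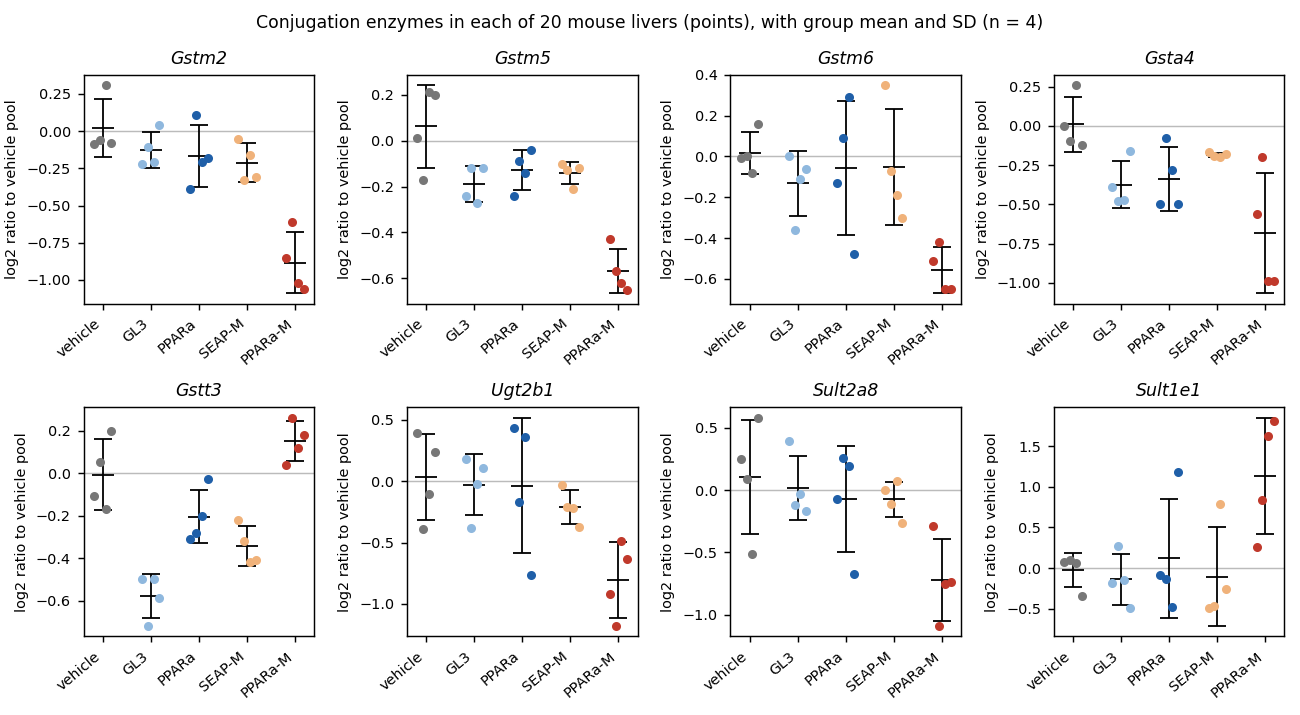
Level of 8 conjugation genes in each mouse (points, log2 ratio to the vehicle pool), with the mean and SD of each group of 4 as black bars; vertical scales differ between panels. The PPARa-M points of Gstm2 and Gstm5 lie below all other mice, those of Gstt3 lie above both control siRNA groups but overlap with the vehicle mice, and Sult1e1 spreads from 0.26 to 1.81 in the PPARa-M group.

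With PPARa siRNA against GL3 siRNA no conjugation gene was called (limma, 0 of 43), where 0.0525% of all genes were. Gstt3 alone had an unadjusted p under 0.05, where 4.95% of all genes did, and no alternative gave a call. The family medians were 0.05 for Gst, 0.00 for Ugt and 0.05 for Sult, against 0.01 over all genes. Apart from Gstt3, the groups did not overlap for Sult6b1 only, which had levels of 0.35, 0.09, 0.06 and 0.14 against -0.24, -0.07, 0.00 and 0.03 (0.23 ± 0.15 SE, adjusted p = 1.00); 4.05% of all genes did not overlap. The lowest differences were those of Ugt2b5 (-0.29 ± 0.17 SE), Ugt2b34 (-0.26 ± 0.13 SE) and Ugt2b37 (-0.23 ± 0.17 SE). Mouse D of PPARa siRNA was the lowest of its group for Ugt2b5 and Ugt2b37. Ugt2b5 stood there at -0.81 and at -0.08, -0.19 and -0.08 in the other mice, and Ugt2b37 at -0.49 and at 0.15, 0.06 and 0.02. Mouse D was also the lowest for Ugt2b1, at -0.76 with the others at 0.43, -0.17 and 0.36. The group means of Ugt2b1 were nearly equal, -0.04 with PPARa and -0.03 with GL3 siRNA. Without that mouse the medians were 0.09 for Gst, 0.10 for Ugt and 0.04 for Sult. The part that its neutrophil and acute phase levels had in these values was not tested.

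Set against vehicle, PPARa-M siRNA gave the most calls: 6 of the 43 genes fell and 0 rose, where 7.28% of all genes were called, 3.91% lower and 3.36% higher. They were Gstm2 (-0.91 ± 0.12 SE, 53.4% of vehicle, adjusted p = 0.000522), Gstm5 (-0.63 ± 0.08 SE, 64.6%, adjusted p = 0.000442), Gsta4 (-0.69 ± 0.15 SE, 61.9%, adjusted p = 0.0119), Gstm6 (-0.57 ± 0.15 SE, 67.2%, adjusted p = 0.0255), Ugt2b1 (-0.84 ± 0.23 SE, 55.8%, adjusted p = 0.0341) and Sult2a8 (-0.82 ± 0.22 SE, 56.8%, adjusted p = 0.0354). By family, 4 of 20 Gst, 1 of 11 Ugt and 1 of 12 Sult genes fell. Where 3.91% of all genes were called lower, 1 call in 11 or 12 genes says little about the Ugt or Sult family. For the Gst genes among the 6 and for Ugt2b1 the groups did not overlap, and 7.73% of all genes were lower without overlap. In Sult2a8 they overlapped, and the vehicle mice ranged from -0.51 to 0.58. Gstm2, Gstm5 and Gsta4 were called with any array left out, Gstm6 in 17 of 20 such fits, Ugt2b1 in 16 and Sult2a8 in 14, and without vehicle mouse A or D only the first 3 were called. After quantile normalization none of the 6 was called (adjusted p from 0.0517 for Gstm5 to 0.336 for Sult2a8).

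The other groups had few calls against vehicle. PPARa siRNA gave 0 of 43 (0.0787% of all genes; 5 of the 43 at an unadjusted p under 0.05, where 5.55% of all genes were) and SEAP-M siRNA 0 of 43 (0.00656% of all genes; 3 of the 43 at an unadjusted p under 0.05, where 5.85% of all genes were). GL3 siRNA gave 1, Gstt3, where 0.0131% of all genes were called. At an unadjusted p under 0.05 there were 7 of the 43, where 423 of 15252 genes were. Of these 7, 6 were Gst genes, all of them lower. With GL3 siRNA 17 of the 20 Gst differences were negative with a median of -0.15, against 7685 of 15252 and a median of 0.00 over all genes. The Gst median with PPARa-M siRNA against vehicle was also -0.15. The Gstt3 call was lost without any of 8 arrays, GL3 mice included. Since each of these comparisons and that of PPARa-M used the same 4 vehicle mice, their differences share whatever error those mice had.

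**Figure D3:**
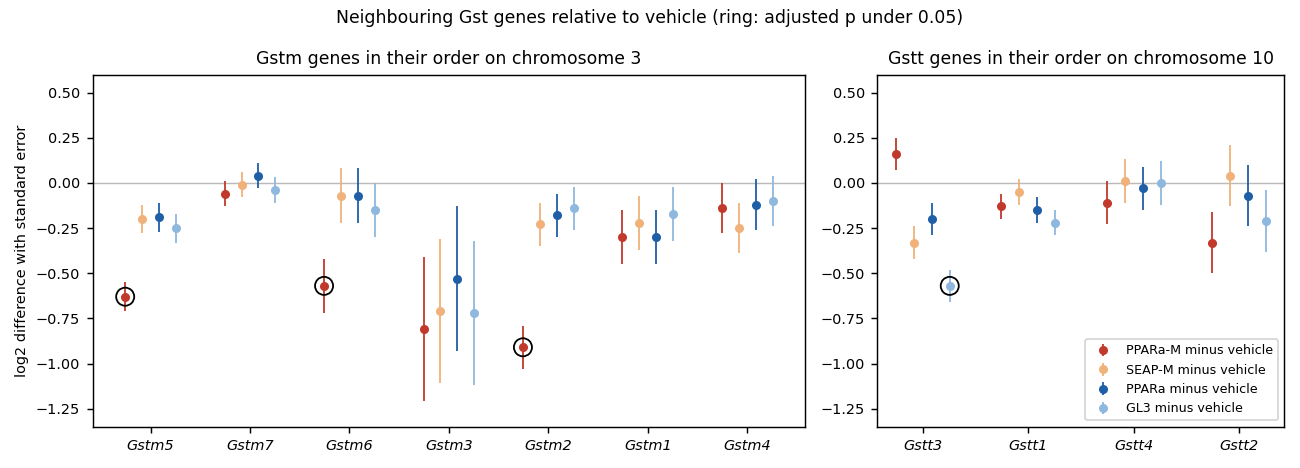
Log2 difference from vehicle (vertical axis, point with its standard error, 4 mice against 4) of the Gstm genes of chromosome 3 and the Gstt genes of chromosome 10 in their order along the chromosome, for each of the 4 siRNAs. With PPARa-M siRNA Gstm5, Gstm6 and Gstm2 are ringed as called and lie between -0.91 and -0.57, Gstm3 lies at -0.81 with a wider error and is not called, and Gstm7, Gstm1 and Gstm4 lie from -0.30 to -0.06; in the Gstt cluster the ringed gene is Gstt3 with GL3 siRNA at -0.57.

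Under PPARa-M siRNA relative to vehicle, Gstm1 was at -0.30 ± 0.15 SE, Gstm4 at -0.14 ± 0.14 SE and Gstm7 at -0.06 ± 0.07 SE, beside Gstm2 at -0.91, Gstm5 at -0.63 and Gstm6 at -0.57. Gstm3 was at -0.81 ± 0.40 SE and was not called (adjusted p = 0.227). Whether these neighbours differ from each other was not tested.

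A test for any difference among the 5 groups called Gstm2 (adjusted p = 0.00176), Gstm5 (adjusted p = 0.00211), Gstt3 (adjusted p = 0.000930) and Gsta4 (adjusted p = 0.0481), all of them Gst genes, where 5.76% of all genes were called. Gstm2, Gstm5 and Gstt3 were called with any array left out, but Gsta4 in 2 of 20 such fits.

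The families differed in how much mice of one group varied. The median SD within groups was 0.18 for Gst, 0.24 for Ugt and 0.25 for Sult genes, against 0.15 over all genes. Of the 3 genes called against SEAP-M siRNA, Gstm5 had an SD of 0.11, Gstt3 of 0.12 and Gstm2 of 0.18, whereas Ugt2b1 had 0.35, Sult2a8 0.34 and Sult1e1 0.56. In the family means, the Gst mean ranged from -0.43 to -0.08 over the PPARa-M mice, from -0.19 to -0.06 over the SEAP-M mice, from -0.31 to -0.14 over the GL3 mice and from -0.08 to 0.02 over the vehicle mice. The Gst mean of the PPARa-M mice thus overlapped with that of the GL3 and SEAP-M mice. The group mean of the Ugt genes was lowest with PPARa-M siRNA, at -0.26, but the mice ranged from -0.49 to -0.10 and overlapped with the SEAP-M mice, from -0.14 to 0.20. The Sult mean of every group lay between -0.06 and 0.01, with members that were higher and lower within it.

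**Figure D4:**
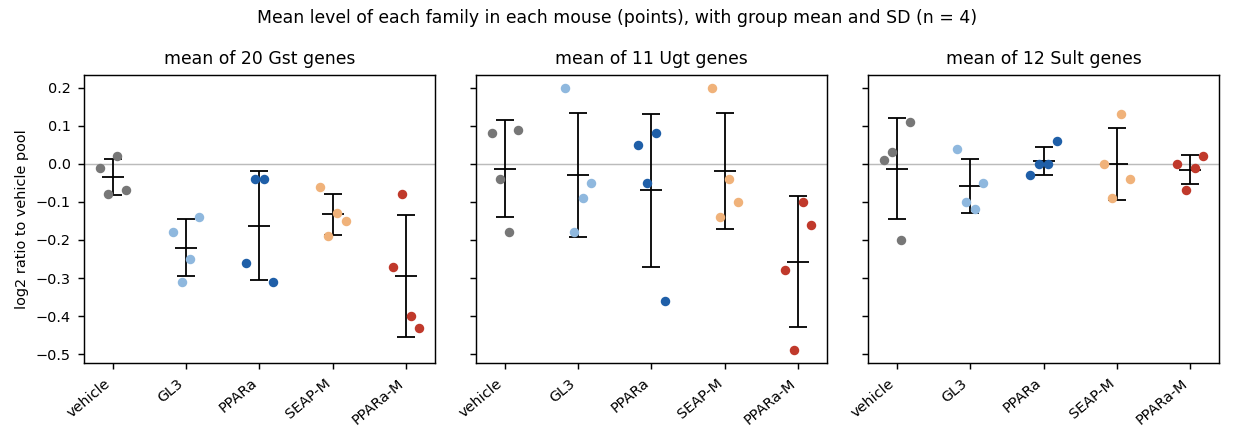
Mean level of the Gst, Ugt and Sult genes in each mouse (points, log2 ratio to the vehicle pool), with the mean and SD of each group of 4 in black. The Gst means of the GL3 mice lie from -0.31 to -0.14, below all vehicle mice, the Ugt means of the PPARa-M mice run from -0.49 to -0.10, and the Sult means of all groups centre near 0.

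Mouse B of the PPARa-M group stood at the top or the bottom of its group for many of the genes. Its Gst mean of -0.08 was the highest of the group and its Ugt mean of -0.49 the lowest, and it was the highest mouse for 19 of the 43 genes and the lowest for 15. Other groups had such mice too. SEAP-M mouse A was the highest of its group for 25 genes and the lowest for 6, and GL3 mouse A for 25 and 5. The array of PPARa-M mouse B had an interquartile range of 0.1245 on the log10 scale, against 0.0735 to 0.089 in the rest of its group. The part of this wider spread in its counts was not tested. PPARa-M mouse B also had the lowest Ppara level, -1.05.

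The supply of the 3 donors was followed with separate gene lists, for PPARa-M against SEAP-M siRNA, where 2.54% of all genes were called. Of 17 genes of glutathione supply and turnover, 2 rose and 0 fell: Ggt6, of the γ-glutamyltransferase family that breaks down glutathione and its conjugates (0.56 ± 0.10 SE, adjusted p = 0.00664), and Dpep1, a dipeptidase that acts on the next product (0.45 ± 0.10 SE, adjusted p = 0.0202). The median of that list was 0.15. None of 9 genes of PAPS and sulphate supply was called (median -0.02), nor any of 8 genes of UDP-glucuronate supply (median -0.14). Of 12 exporters and transporters of conjugates, Abcg2, a canalicular pump of sulphate conjugates, fell (-0.66 ± 0.11 SE, adjusted p = 0.00575), and the list's median was -0.23. Of 17 other conjugation enzymes, Nnmt, which methylates nicotinamide, rose (0.77 ± 0.20 SE, adjusted p = 0.0462), and Nat8, which acetylates cysteine conjugates, fell (-0.95 ± 0.23 SE, adjusted p = 0.0378). In this comparison none of these 5 genes was called after quantile normalization (adjusted p from 0.0995 for Ggt6 to 0.329 for Dpep1) or with one interquartile range (0.0562 for Ggt6 to 0.252 for Dpep1). Ggt6 and Abcg2 stayed called with any array left out, Dpep1 in 17 of 20 such fits, Nat8 in 14 and Nnmt in 10. For both Ppara siRNAs against both control siRNAs Ggt6 was called as well (0.42, adjusted p = 0.00968), where 0.216% of all genes were. That call held after quantile normalization (adjusted p = 0.0390), with one interquartile range (0.0202) and with any array left out.

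Genes known to answer to the same inducers were also counted, for PPARa-M against SEAP-M siRNA (2.54% of all genes called) unless stated. Of 21 NRF2 target genes 1 rose, the carbonyl reductase Cbr1 (0.59 ± 0.10 SE, adjusted p = 0.00752), and 1 fell, Osgin1 (-1.04 ± 0.23 SE, adjusted p = 0.0246), with a list median of 0.00. Of 21 CAR and PXR target genes, mostly cytochrome P450 genes, 1 fell, the aldehyde dehydrogenase Aldh1a7 (-0.68 ± 0.09 SE, adjusted p = 0.00135), and the median was -0.05. None of 18 receptors and sensors was called against SEAP-M. Nr1i3, which encodes CAR, differed by 0.41 ± 0.16 SE (adjusted p = 0.168), and it rose against vehicle (0.68 ± 0.16 SE, adjusted p = 0.0189). The calls for Cbr1, Osgin1 and Aldh1a7 against SEAP-M and for Nr1i3 against vehicle were lost under other scalings. The adjusted p-values were 0.0995, 0.212, 0.329 and 0.242 after quantile normalization and 0.0677, 0.179, 0.275 and 0.186 with one interquartile range. Against vehicle 3 of the 21 CAR and PXR targets were called lower and 0 higher (median 0.01), where 7.28% of all genes were called. Of these 3, Aldh1a7 alone (-1.21, adjusted p = 2.9e-06) stayed called after quantile normalization (adjusted p = 0.00759) and with one interquartile range (0.00641). Osgin1 stayed called in 16 of the 20 fits that each omit an array and Nr1i3 in 19, all but that without vehicle mouse D. With PPARa against GL3 siRNA, 0 genes of any of these lists were called, where 0.0525% of all genes were. At that share, 0 calls in lists of this size say little about these genes.

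Cell type markers were followed beside the PPARa-M results, for PPARa-M against SEAP-M siRNA, where 2.54% of all genes were called. Of 6 hepatocyte markers none was called against SEAP-M, with mean levels of 0.01 to 0.34 in the PPARa-M mice and of 0.01 to 0.06 in the SEAP-M mice. The 7 cholangiocyte markers had mean levels of 0.15 to 0.40 against -0.07 to 0.12, with 0 called, and the 6 erythroid markers of -0.69 to -0.32 against -0.19 to 0.11, with Ermap called lower (-1.28 ± 0.27 SE, adjusted p = 0.0199). Of 9 endothelial markers 3 had a positive difference and 6 a negative one, with a median of -0.03. Only Flt1 was called among them, and it rose (0.46 ± 0.11 SE, adjusted p = 0.0370). Neither Ermap nor Flt1 was called after quantile normalization (adjusted p = 0.0746 and 0.475) or with one interquartile range (0.112 and 0.418), and with an array left out they stayed called in 18 and 15 of 20 fits. None of the neutrophil, Kupffer cell, stellate cell, lymphocyte or acute phase genes was called. The part of the cholangiocyte and erythroid shifts, and of the rise of Flt1, in the results on the conjugation genes was not tested.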

How the data were processed

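Per the labels, RNA of each liver (20 mice, 5 groups of 4) and of the vehicle pool was amplified to cRNA, labelled with Cy5 and Cy3 and hybridized to a custom mouse oligonucleotide array. The authors deposited the log10 ratio of each of 23493 probes; background correction, normalization and signal are not given in the sources used here, and so neither are detection above background nor saturation. Of the probes, 18790 have 1 symbol in the array annotation, 65 have several and 4638 have none. Of the deposited log10 values 40 stand at the limit of 2 or -2, 0 of them in the conjugation genes.

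Values were turned to log2 without further normalization, averaged per symbol, and fitted with limma 3.58.1 (R 4.3.3) with 1 mean per group over all 20 arrays. Benjamini-Hochberg adjustment was over the 15252 genes separately for each comparison, and genes passed at 0.05. The scripts were tested on simulated data. Tables and figures were made with Python 3.11.15, numpy 2.4.6, pandas 2.3.3 and matplotlib 3.10.9. The number of mice limits the precision, and p-values refer to the spread between mice.

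Alternatives were median centring, quantile normalization, one interquartile range, array weights, robust moderation, the median of probes, values at the limit left out, a threshold of 0.01, only the groups compared, a replicate block, and each array left out. Named genes are those called in any comparison and the 3 of each family with the largest difference in each of the comparisons of a Ppara siRNA with its control siRNA; others are named to complete a cluster or class. The members, gene lists and motifs were chosen with earlier results of these data known. Sequences and gene order are from RefSeq (GRCm38.p6); 39 members had a start-site window, and Gsta4, Gstt2, Sult4a1 and Ugt3a2 had none.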

Additional observations from a re-analysis of the deposited data

Results flagged for a closer look

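Within groups of 4 mice, 4 values stood far from the other 3. Gstm2 was at 0.31 in vehicle mouse C and between -0.09 and -0.06 in the other vehicle mice. Ugt2b5 was at -0.81 in PPARa siRNA mouse D and between -0.19 and -0.08 in the others. Sult1e1 was at -0.34 in vehicle mouse D and between 0.06 and 0.10 in the others. Ppara was at -1.05 in PPARa-M siRNA mouse B and between -0.62 and -0.59 in the others. With 90 groups looked at, 18 genes in 5 groups each, chance flags about 1 in 20.

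For Gstm5 the effect of PPARa siRNA over GL3 siRNA and that of PPARa-M siRNA over SEAP-M siRNA differed by 0.49 ± 0.11 SE on the log2 scale (limma, adjusted p = 0.0485).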

How the results depend on the processing

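The counts of called conjugation genes depended on how the arrays were scaled. For PPARa-M against SEAP-M siRNA the 3 calls became 0 after quantile normalization, 0 with one interquartile range for all arrays, 0 from the compared groups alone and 8 (2 higher, 6 lower) with array weights, where the whole array had 1, 13, 41 and 882 calls instead of 388. For PPARa-M against vehicle the 6 calls became 0, 0 and 3 under the first 3 of these, and 2 at a threshold of 0.01. For both Ppara siRNAs against both controls array weights gave 2 calls instead of 1. For GL3 against vehicle the 1 call became 0 after quantile normalization, from the compared groups alone, with the replicate block and at 0.01. For the difference between the Ppara siRNAs the 1 call became 0 with median centring, quantile normalization, one interquartile range, the median of probes, the replicate block and at 0.01, and 5 with array weights. The 4 calls over the 5 groups became 1 after quantile normalization and with one interquartile range (Gstt3 both times), and 7 with array weights. No difference reported as a called result changed its sign under any of these.

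Ppara differed between PPARa-M and SEAP-M by -0.74, -0.63 and -0.89 after quantile normalization, with one interquartile range and from the compared groups alone, and was then not called; between both Ppara siRNAs and both controls it differed by -0.56, -0.51 and -0.62, also not called.

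With each of the 20 arrays left out in turn, the calls ranged from 3 to 7 for PPARa-M against SEAP-M (7 without PPARa siRNA mouse D), from 3 to 7 for PPARa-M against vehicle, from 0 to 1 for GL3 against vehicle and for the difference between the siRNAs, and from 3 to 6 over the 5 groups. The median of the Sult genes for PPARa-M against SEAP-M ranged from -0.19 to -0.05, and the difference of Ppara between both Ppara siRNAs and both controls from -0.67 to -0.51, called in 6 of 20 fits.

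The letters A to D recur in every group, but the labels do not say that they pair mice. Deviations of same-letter mice from their group means correlated by -0.205 to 0.302, over 0.1 in 13 of 40 pairs, and 9 of 20 arrays correlated best with their own letter. The mean correlation was 0.0209 for same-letter mice and -0.00708 for mice of different letters. As the labels give no pairing and the mean was near 0, the letters were not taken as pairs. The replicate block gave 4 calls for PPARa-M against SEAP-M, Sult5a1 beside the 3 others.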

Other observations

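The vehicle mice were not at the level of the vehicle pool for every gene. Ugt2b34 was at -0.18, -0.27, -0.26 and -0.33 in the 4 vehicle mice and Ugt2b5 at -0.12, -0.17, -0.23 and -0.32, and Gsta3 and Gstp1 were also below the pool in all 4. Whether the pool holds RNA of the same 4 mice is not stated in the sources used here. Differences between groups, as reported, do not contain this offset, but a ratio to the pool read on its own does.

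The genes that lay below the pool in all 4 mice of a group were also counted. In all 4 GL3 mice 12 of 20 Gst genes were below the pool, with 0 of 11 Ugt and 3 of 12 Sult genes, and in all 4 SEAP-M mice 8 of 20, 1 of 11 and 3 of 12. In the PPARa siRNA mice 6 of 20 Gst, 2 of 11 Ugt and 0 of 12 Sult genes were, and in the PPARa-M mice 9 of 20, 5 of 11 and 5 of 12. Over all 15252 genes, 437 were below the pool in all 4 vehicle mice, 1530 with GL3, 1954 with SEAP-M, 1488 with PPARa and 3276 with PPARa-M siRNA. Above the pool in all 4 mice were 485, 1635, 2001, 1612 and 2556 genes in the same order, and 0, 1, 3, 2 and 2 of the 43. The counts contain the offset of the pool. Gsta3 and Gstp1, both counted with GL3 siRNA, had mean levels of -0.21 and -0.16 there and lower ones in vehicle mice (-0.36 and -0.32). These counts are descriptions and carry no test.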
